A study of Mus musculus with 4 samples.

Results

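RNA recovered with IMP2 from mouse pancreatic islets was compared with RNA of the IgG library, 1 library on each side. A gene was measured where its mean over both libraries was at least 1 CPM (CPM are gene counts scaled to a common total per library). Because the precipitates held RNA of different tissues, the comparison was centred on genes that also reached 1 CPM in control islets, called members here. They numbered 13475 of 14822 measured genes and of 43629 genes in the count files. The other 1347 measured genes lay under 1 CPM in control islets.

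The study sequenced islets of C57BL/6 mice in 4 libraries, and 3 of them are used here. The RIP library (RNA immunoprecipitation, in which an antibody pulls down a protein together with its RNA) and the IgG library both carry the genotype WT. The reference islet library carries the genotype control and is not labelled as the input of the precipitation. The fourth library, labelled Rip2;IMP2, enters no ratio given here. It served only to estimate reads per molecule, in 1 alternative setting and for the level of a few genes named below. Age, sex, the number of mice pooled, the antibodies and the washing of the precipitates are not stated in the sources used here.

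IMP2, the product of Igf2bp2, is an RNA-binding protein, with the close relatives IMP1 and IMP3, and such proteins attach to many mRNAs and act on the stability, localization and translation of these RNAs. In pancreatic islets the beta cells make insulin, and alpha, delta and PP cells make glucagon, somatostatin and pancreatic polypeptide. An immunoprecipitation with IgG is the usual measure of RNA that is carried over without the antibody's target, and an RNA held by the target is looked for as a higher level with the specific antibody than with IgG.

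The RIP library held 6025594 gene counts, the IgG library 13195732 and control islets 26350813. The labels call all of them islet, but the markers of the IgG library go against that label. Summed over 10 beta cell markers, control islets held 309568 CPM, the RIP 236058 and the IgG library 973.3. Summed over 8 adipocyte markers, the same libraries held 271.8, 1998 and 35494 CPM, and over 8 brown adipocyte markers 5.65, 1254 and 20689. None of these markers was at 0 in either precipitate. The part of this tissue difference in any single ratio of RIP over IgG was not tested, so ratios against control islets are given beside RIP over IgG for the main lists and for many of the genes. Each of these 3 pairs was scaled on its own with TMM (a trimmed mean of the log ratios of genes), and fewer cells of a type and less RNA per cell cannot be told apart.

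A member was called higher or lower in the RIP where its ratio was at least 2-fold and the exact 95% interval of the ratio excluded 1. These intervals cover counting error only, since the reads carry no molecular identifiers and copies of a molecule count again. With 1 library per group there was no replicate check and no test, and an interval compares these libraries, not the antibodies. By this rule 5599 members were higher, which is 41.6% of the 13475, and 4049 were lower, which is 30.0%. Over all 14822 measured genes the shares were 43.2% and 30.4%. Calls in either direction made up 71.6% of members, so a call by itself sets no gene apart. Counts called within a list are to be read beside the shares of all members, 41.6% higher and 30.0% lower. Scaled by library totals the split was 6838 higher and 2955 lower. Scaled by totals without hormone, acinar and Gm42418 counts (Gm42418 lies over ribosomal RNA) it was 8362 and 1975.

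The members spread over a wide range. The median log2 ratio of RIP over IgG was 0.36, with quartiles at -1.41 and 2.93. RIP over control islets had a median of -0.08 and quartiles at -0.74 and 0.49, and IgG over control islets a median of -0.62 and quartiles at -3.04 and 1.05. The distance between the quartiles was therefore 4.34 log2 units for RIP over IgG, 4.09 for IgG over control and 1.23 for RIP over control. In the IgG library 1589 members had 0 counts, and in the RIP 397 did. Ratios of 16-fold or more were reached by 2889 members on the higher side and 851 on the lower side. Members at 0 counts in 1 library enter these numbers whatever their other count, wherever the interval excludes 1.

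**Figure D1:**
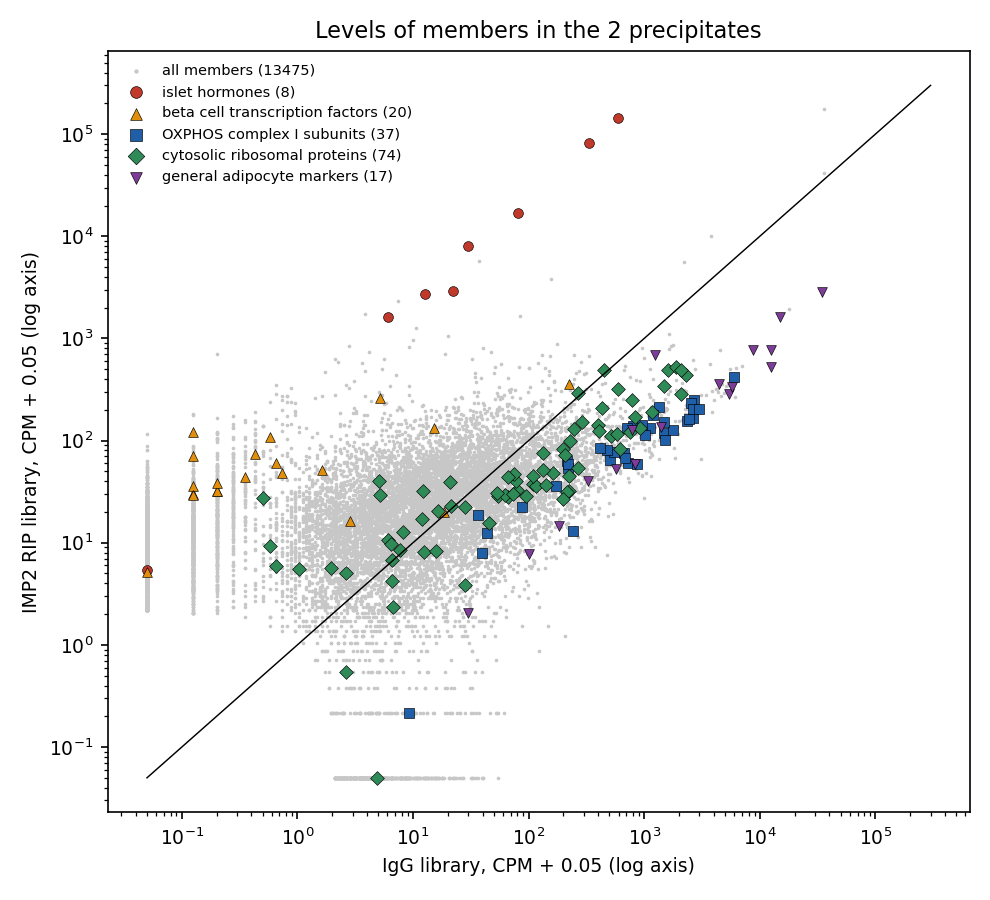
Levels of the 13475 members in the IgG library (x axis) and the IMP2 RIP library (y axis), in CPM + 0.05 on log axes, 1 library each, with 5 gene lists marked and the line of equal CPM drawn. Islet hormones and most beta cell transcription factors lie above the line, and complex I subunits and adipocyte markers lie below it.

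Islet hormone genes stood highest among the lists. All 8 were members and all 8 were higher in the RIP, with a median log2 ratio of 7.15 against 0.36 for all members. Their median was -0.11 for RIP over control islets and -7.27 for IgG over control islets. Ins2, a mouse insulin gene, had 5050698 counts in control islets, 867802 in the RIP and 7868 with IgG, and was 150.2-fold higher against IgG (147 to 154). Sst, which encodes somatostatin, had 91924, 16437 and 167 counts in the same order and was 134-fold higher (115 to 157). Both genes were high in control islets and the RIP and low with IgG. Where 3 counts of a gene are given, they stand for control islets, RIP and IgG in that order. Ppy, which encodes pancreatic polypeptide, was 82.6-fold higher, the lowest ratio of the list, and the glucagon gene also lay on the higher side. Ghrl, which encodes ghrelin, had 32 counts in the RIP and 0 with IgG, 14.5-fold higher at a floor of 3 counts (exact lower limit 11.1).

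The share that the IgG count made of the RIP count varied by about 2-fold among hormones. For the 7 hormone genes with at least 1000 counts in the RIP, the IgG count was 0.815% to 1.65% of the RIP count, with a median of 0.907%. For 7 granin and granule membrane genes the range was 0.563% to 4.01%. In the other direction, the RIP count was 1.90% to 25.3% of the IgG count for 20 adipocyte markers, with a median of 3.69%, and 0.716% to 2.23% for 4 blood markers. In ratios of RIP over IgG the 7 hormones lay between 82.6 (Ppy, 73.5 to 93.1) and 167 (Iapp, islet amyloid polypeptide, 151 to 185), whose intervals do not meet.

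Granins and granule membrane proteins, which fill and enclose the insulin granule, were higher for 16 of 16 members, with a median of 6.61. Their medians were 0.16 for RIP over control and -6.69 for IgG over control. Chgb, the granule matrix protein chromogranin B, had 61248 counts in control islets, 14069 in the RIP and 98 with IgG and was 195-fold higher in the RIP. Ptprn, a granule membrane protein, had 14886, 3531 and 29 and was 166-fold higher. The smallest ratio of the list was that of Atp6ap2, an accessory protein of the vacuolar proton pump, at 3.19 (2.81 to 3.64).

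Genes of prohormone processing were higher for 8 of 11 members and lower for 1, with a median of 4.68. Pcsk2, a convertase that cuts proinsulin and proglucagon, had 54698, 9201 and 82 counts and was 153-fold higher. Furin, a convertase found in most tissues, was the lower member, 2.53-fold, with 1781, 330 and 1138 counts. Erp44, which retains proteins in the early secretory pathway, had a ratio of 0.791 and Cpd, a carboxypeptidase of many tissues, 1.21. These 3 were at 0.995, 0.884 and 1.03 in RIP over control islets.

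Beta cell transcription factors were higher for 18 of 20 members and lower for 0, with a median of 6.56. The medians of the list were 0.24 for RIP over control and -6.29 for IgG over control. Pdx1, a regulator of pancreas development and of insulin transcription, had 2531 counts in control islets, 361 in the RIP and 8 with IgG, 61.4-fold higher in the RIP (30.8 to 143). Its RIP over control ratio was 0.766, so its level relative to other RNA was lower in the RIP than in control islets. Neurod1, which acts in endocrine differentiation, had 1945, 725 and 1 counts, a ratio of 987 (177 to 39042), and was also above control islets in the RIP. The members not called were Tcf7l2, a factor of Wnt signalling, at 0.681, and Mlxipl, a glucose-responsive factor, at 0.994. Mlxipl had 13320, 2174 and 2979 counts and was therefore well measured in every library.

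Alpha cell genes besides the hormones behaved alike in number, with 8 of 9 members higher and a median of 5.35. Slc7a2, an amino acid transporter, had 4800, 1063 and 49 counts and was 29.5-fold higher, and 1.19 in RIP over control. The 1 member not called was the gene of the vitamin D binding protein.

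Ion channels of beta cells were higher for 22 of 28 members and lower for 3, with a median of 4.46. Abcc8, the sulphonylurea receptor of the ATP-sensitive potassium channel, had 29220, 4998 and 120 counts and was 56.7-fold higher. Its partner Kcnj11, the pore of that channel, had 552, 130 and 0 and was 59.0-fold higher at the floor of 3 counts. Kcnk3, a background potassium channel, went the other way with 637, 1161 and 16398 counts, 10.4-fold lower in the RIP, although it was 9.79-fold higher in the RIP than in control islets. Itpr1, the calcium release receptor, was 2.03-fold lower.

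Exocytosis genes were higher for 18 of 23 members and lower for 2, with a median of 4.05. Snap25, a membrane fusion protein of neurons and endocrine cells, had 3416, 1042 and 3 counts and a ratio of 473 (161 to 2297). Syt5, a synaptotagmin, had 1155, 198 and 0 counts, 89.9-fold higher at the floor of 3 counts. Vamp2, a fusion protein of the granule, was 2.78-fold higher, while its relative Vamp3, found in most cells, was 4.53-fold lower with 1362, 288 and 1778 counts. Both were close to control islets in the RIP, at 1.24 and 1.14.

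Genes of incretin and cAMP signalling were higher for 11 of 20 members and lower for 4, with a median of 2.53. Rapgef4, the cAMP sensor of beta cells, had 1654, 1083 and 1 counts, a ratio of 1475 (264 to 58294), and 3.52 in RIP over control. Glp1r, the GLP-1 receptor, had 751, 106 and 0 counts, 48.1-fold higher at the floor of 3 counts. Prkaca, a catalytic subunit of protein kinase A, was 6.77-fold lower, while Prkacb, the alternative catalytic subunit, was 17.0-fold higher.

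Genes of glucose uptake and sensing lay on both sides. Of 24 members 7 were higher and 16 lower, with a median of -2.24. G6pc2, a glucose-6-phosphatase subunit of islets, had 43245, 10372 and 50 counts and was 282-fold higher. Slc2a2, the glucose transporter GLUT2, was 189-fold higher with 4655, 835 and 6 counts. Mpc2, a subunit of the mitochondrial pyruvate carrier, had 852, 571 and 11145 counts and was 14.3-fold lower in the RIP. Gpd2, of the glycerol phosphate shuttle, was 13.6-fold lower and Pkm, a pyruvate kinase, 8.67-fold. Relative to control islets the RIP held Gpd2 at 1.26, Pkm at 1.03 and Mpc2 at 3.60.

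Marker lists of other cell types left aside, the medians of the lists with 5 or more members spanned a wide range. From the hormones at the top to complex IV with cytochrome c at the bottom, the medians of RIP over IgG ran from 7.15 to -4.12, and those of IgG over control islets from -7.27 to 5.65. The medians of RIP over control islets lay between -0.50 and 1.64 for these lists. The ratio pairs share libraries, so they are shown side by side and not correlated.

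**Figure D2:**
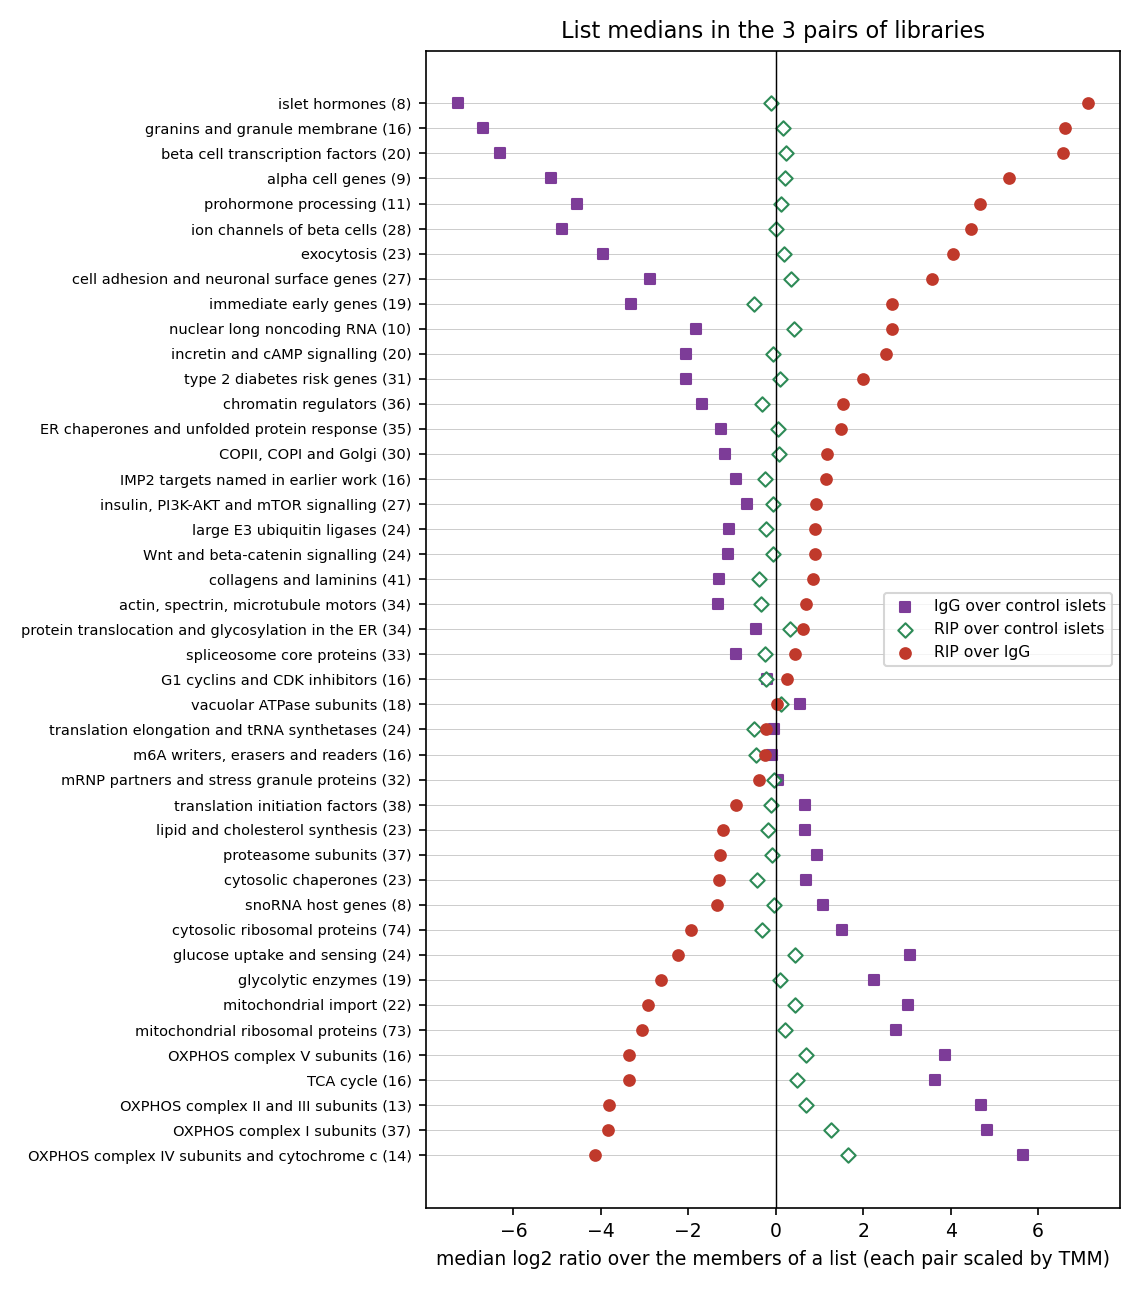
Median log2 ratio of each gene list with 5 or more members, without the marker lists of other cell types (number of members in brackets) for RIP over IgG (red circles), RIP over control islets (open green diamonds) and IgG over control islets (purple squares), each pair scaled by TMM, 1 library per group. RIP over IgG and IgG over control islets lie on opposite sides of 0 for most lists and RIP over control islets lies near 0. Of all 55 lists 12 change side under another scaling, among them proteasome subunits, chaperones, initiation factors, lipid synthesis and m6A genes.

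ER chaperones and unfolded protein response genes were higher for 21 of 35 members and lower for 2, with a median of 1.5. Hspa5, the chaperone BiP, had 18937, 4028 and 2030 counts and was 2.70-fold higher. Ern1, the stress sensor IRE1 alpha, had 1764, 166 and 0 counts, 75.3-fold higher at the floor, though its RIP over control ratio was 0.506. Derl1 and Derl2, which export misfolded proteins from the ER, were 4.71-fold and 3.53-fold lower.

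Genes of ER translocation and glycosylation were higher for 15 of 34 members and lower for 4, with a median of 0.64. Their share higher, 44.1%, was near the 41.6% of all members, and 11.8% were lower against 30.0%. Sec61a1, the channel subunit, was 8.45-fold higher with 8458, 2785 and 449 counts, while Rpn2, an oligosaccharyltransferase subunit, was at 1.01 with 12030, 2409 and 3245. COPII, COPI and Golgi genes were higher for 18 of 30 and lower for 2, with a median of 1.17. Lman1, a cargo receptor, was 23.7-fold higher and Copz1, a coatomer subunit, 3.20-fold lower.

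Nuclear-encoded subunits of the respiratory chain and ATP synthase were among the lowest lists, marker lists of other cell types left aside. Complex I had 37 of 37 members lower (median -3.84), complexes II and III 13 of 13 (median -3.81), complex IV with cytochrome c 13 of 14 (median -4.12), and complex V 14 of 16 (median -3.35). Their medians of RIP over control islets were 1.26, 0.68, 1.64 and 0.70, and those of IgG over control were 4.84, 4.69, 5.65 and 3.88. These RNAs were thus above control islets in both precipitates at the median, and further above in the IgG library. Cox4i1, a core subunit of cytochrome c oxidase, had 5337, 3244 and 92760 counts and was 21.0-fold lower in the RIP against IgG, and 3.27-fold above control islets. Atp5a1, the alpha subunit of ATP synthase, had 12100, 3052 and 72895 counts and was 17.5-fold lower.

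A pair of members of these complexes went the other way. Cox6a2, the heart and muscle isoform of a cytochrome c oxidase subunit, had 3188, 358 and 15 counts and was 32.5-fold higher (19.4 to 58.7), while its alternative isoform Cox6a1 had 3054, 1763 and 64414 counts and was 26.8-fold lower. The isoforms had similar counts in control islets. Atpif1, the inhibitor of ATP synthase, was 6.01-fold higher with 1363, 349 and 79 counts.

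Other mitochondrial genes followed. TCA cycle enzymes were lower for 16 of 16 members (median -3.35), mitochondrial ribosomal proteins for 68 of 73 with 1 higher (median -3.06) and import factors for 18 of 22 (median -2.92). Cs, citrate synthase, had 2695, 594 and 20601 counts and was 25.5-fold lower, at 1.18 in RIP over control. Mrpl24 of the large mitochondrial ribosomal subunit was the higher member, 2.58-fold. Tomm20, the import receptor, was at 1.70.

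Glycolytic enzymes were lower for 16 of 19 members and higher for 2, with a median of -2.63. Ldha, lactate dehydrogenase A, had 3151, 1944 and 56357 counts and was 21.3-fold lower. Among the higher members was Eno2, the neuronal and endocrine enolase, with 1544, 247 and 0 counts, 112-fold higher at the floor of 3 counts.

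Lipid and cholesterol synthesis genes lay on both sides. Of 23 members 13 were lower and 6 higher, with a median of -1.22 that was 0.24 when scaled by totals without hormone, acinar and Gm42418 counts. Fasn, fatty acid synthase, had 3715, 9795 and 195344 counts and was 14.6-fold lower. Scd1, stearoyl-CoA desaturase, was 19.2-fold lower, yet 31.6-fold above control islets in the RIP. Srebf2, a regulator of cholesterol synthesis, had 5095, 489 and 59 counts and was 11.3-fold higher, and Dhcr7, an enzyme of that pathway, was 9.85-fold higher. In RIP over control they stood at 0.516 and 1.19.

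Cytosolic ribosomal proteins were lower for 54 of 74 members and higher for 6, with a median of -1.94. Under totals without hormone, acinar and Gm42418 counts 21 were lower and 15 higher, with a median of -0.49. Their counts are uncertain, since near-identical copies share reads. Rpl8 of the large subunit had 21688, 2965 and 20988 counts and was 5.20-fold lower, and Rpl4 had 27844, 2936 and 5930, a ratio of 0.674. Rpl10a, at 37.2 (16.7 to 103), was the highest, with 920, 164 and 6 counts.

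Translation initiation factors were lower for 17 of 38 members and higher for 5, with a median of -0.90 that was 0.55, with 13 higher and 4 lower, under totals without hormone, acinar and Gm42418 counts. Eif4g3, a scaffold of the cap-binding complex, had 5312, 1397 and 76 counts and was 25-fold higher, while the related Eif4g1 was at 1.15 and Eif4g2 at 0.505. Eif4ebp1, the inhibitor of the cap-binding protein, was 18.1-fold lower. Elongation factors and tRNA synthetases had 4 of 24 higher and 7 lower (median -0.22, or 1.23 under those totals). These were 16.7% and 29.2%, against 41.6% and 30.0% of all members.

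Proteasome subunits were lower for 22 of 37 members and higher for 4 (median -1.28, or 0.17 with 10 higher and 7 lower under totals without hormone, acinar and Gm42418 counts). Psmd4, a ubiquitin receptor of the regulatory particle, was 16.2-fold lower, and Psmd1, a scaffold of the same particle, 4.31-fold higher. Cytosolic chaperones were lower for 12 of 23 and higher for 1 (median -1.30, or 0.16 with 10 higher and 3 lower under those totals). Hspa8, the constitutive HSP70, was 7.5-fold lower with 6517, 698 and 7125 counts. The higher member was Cct6a of the cytosolic chaperonin, 5.03-fold.

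The RNA of IMP2 itself was not called in either direction. Igf2bp2 (ENSMUSG00000033581) had 255 counts in control islets, 186 in the RIP and 458 with IgG, or 9.68, 30.9 and 34.7 CPM. Its ratio of RIP over IgG was 0.553 under TMM and 1.51 under totals without hormone, acinar and Gm42418 counts, so its side of 1 turned with the scaling. Igf2bp3, the gene of the paralog IMP3, had 32, 26 and 69 counts and a ratio of 0.513, or 1.40 under those totals. Igf2bp1, the gene of IMP1, was under the control islet limit, with 9, 736 and 523 counts, and was therefore no member. Its level was high in both precipitates and very low in control islets, and its ratio of RIP over IgG was 1.92 (1.71 to 2.15). That is under the 2-fold limit, but under library totals it was called higher at 3.08, and under totals without hormone, acinar and Gm42418 counts at 5.24.

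Among 32 genes of proteins that share RNA granules with IMP2 or bind mRNA broadly, 9 were higher and 10 lower (median -0.38, or 1.07 under totals without hormone, acinar and Gm42418 counts). These were 28.1% and 31.25%, against 41.6% and 30.0% of all members. Pabpc4, a poly(A)-binding protein, had 1385, 4134 and 1716 counts and was 3.28-fold higher against IgG (3.10 to 3.47) and 16-fold higher against control islets. Pabpc1, the main poly(A)-binding protein, had 10205, 1089 and 2091 counts and a ratio of 0.709. Ptbp1, a splicing repressor, was 16.5-fold higher and Stau2, a transport factor of mRNA, 7.82-fold lower. Genes of m6A, the RNA methylation that IMP proteins can read, had 4 of 16 higher and 4 lower, 25% each way (median -0.25, or 1.21 under those totals). Fto, a demethylase, was 10.7-fold lower with 1328, 39 and 567 counts.

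Targets of IMP2 named in earlier work were higher for 9 of 16 members and lower for 6, 56.3% and 37.5% against 41.6% and 30.0% of all members. The median was 1.16. Cell cycle and signalling genes lay on both sides. Ccnd2, a G1 cyclin of beta cells, had 7245, 1811 and 67 counts and was 36.8-fold higher. Ctnnb1, beta-catenin, had 6609, 716 and 48 counts and was 20.3-fold higher, and 0.582 in RIP over control. Myc had 1020, 13 and 2 counts, a ratio of 8.85 (2.0 to 80.8), and 0.0685 in RIP over control. The lower side held Igf2, a fetal growth factor, at 14.1-fold, and the mitochondrial genes Cox4i1, Cox7b and Ndufs3 at 21.0-fold, 10.9-fold and 6.31-fold. Mtor and Ccng1 were 2.14-fold and 3.57-fold lower.

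Medians of the signalling lists were positive, as was that of all members (0.36). Insulin, PI3K-AKT and mTOR genes had 13 of 27 higher and 9 lower (median 0.93). Irs2, an insulin receptor substrate, had 284, 61 and 0 counts and was at least 27.7-fold higher, Akt1 was 2.02-fold higher and Akt2, the isoform of fat and muscle, 8.50-fold lower. Wnt and beta-catenin genes had 11 of 24 higher and 2 lower (median 0.89). Wnt4, a ligand, had 7885, 2108 and 8 counts and was 359-fold higher. G1 cyclins and their inhibitors had 6 of 16 higher and 5 lower (median 0.25). In the order given, the lists had 48.1%, 45.8% and 37.5% higher, against 41.6% of all members. They had 33.3%, 8.33% and 31.25% lower, against 30.0%.

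Adhesion and neuronal surface genes, many of which are long, were higher for 20 of 27 members and lower for 3, with a median of 3.57. Ncam1, a neural cell adhesion molecule that islets also make, had 2899, 1724 and 8 counts, 293-fold higher than in the IgG library and 3.19-fold higher than in control islets. Nrxn3, a neurexin, had 33, 115 and 0 counts, 52.2-fold higher at the floor of 3 counts, and 18.7 in RIP over control. Both were above control islets in the RIP and near 0 in the IgG library. Chromatin regulators were higher for 20 of 36 and lower for 3, with a median of 1.53. Chd7, a chromatin remodeller, had 1988, 1693 and 121 counts and was 19.1-fold higher than in the IgG library and 4.58-fold higher than in control islets.

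Nuclear long noncoding RNAs were higher for 6 of 10 members and lower for 1, with a median of 2.65. Meg3, an imprinted RNA, had 35912, 7598 and 140 counts and was 73.9-fold higher, and Rian of the same imprinted cluster was 119-fold higher. Neat1, the scaffold of paraspeckles, was 2.03-fold lower with 8310, 3252 and 8991 counts, and Malat1, of nuclear speckles, had a ratio of 0.530. Immediate early genes were higher for 13 of 19 and lower for 2 (median 2.66), with Fos 5.66-fold and Egr1 9.11-fold higher and both near 0.5 in RIP over control (0.495 and 0.554).

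Over all members the ratio of RIP over IgG moved with gene length. Exon length, summed over the exons of all annotated transcripts, was found for 13417 members. The 738 members under 1000 bases had a median log2 ratio of -1.39, with 31.0% higher and 54.1% lower. The 2398 members of at least 8000 bases had a median of 1.17, with 53.5% higher and 16.7% lower. The classes between them lay in order at -0.68, 0.05 and 0.53. The difference between the longest and the shortest class was 2.56 log2 units, and among members outside all 55 gene lists used here it was 2.35, a check added after the values were seen.

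On the other pairs the length classes differed as follows. IgG over control islets went from 1.27 in the shortest class to -1.27 in the longest, and RIP over control islets from 0.10 to -0.11. Coding length gave the same order, with medians of -0.83, 0.09, 0.75 and 1.35 for RIP over IgG in 4 groups of equal size and 0.06 to -0.22 for RIP over control. By 3' UTR length the groups lay closer together, from 0.08 to 0.54. GC content gave no order, with groups at 0.39, 0.45, 0.23 and 0.38. Among members with an IgG level within 2-fold of control islets, the exon length classes lay closer together. Their medians were -1.77 in the shortest class and -0.85 in the longest, with 4.42% and 3.16% higher and 65.7% and 44.0% lower. By coding length these members showed no clear order, with medians of -1.05, -1.05, -1.07 and -0.88.

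**Figure D3:**
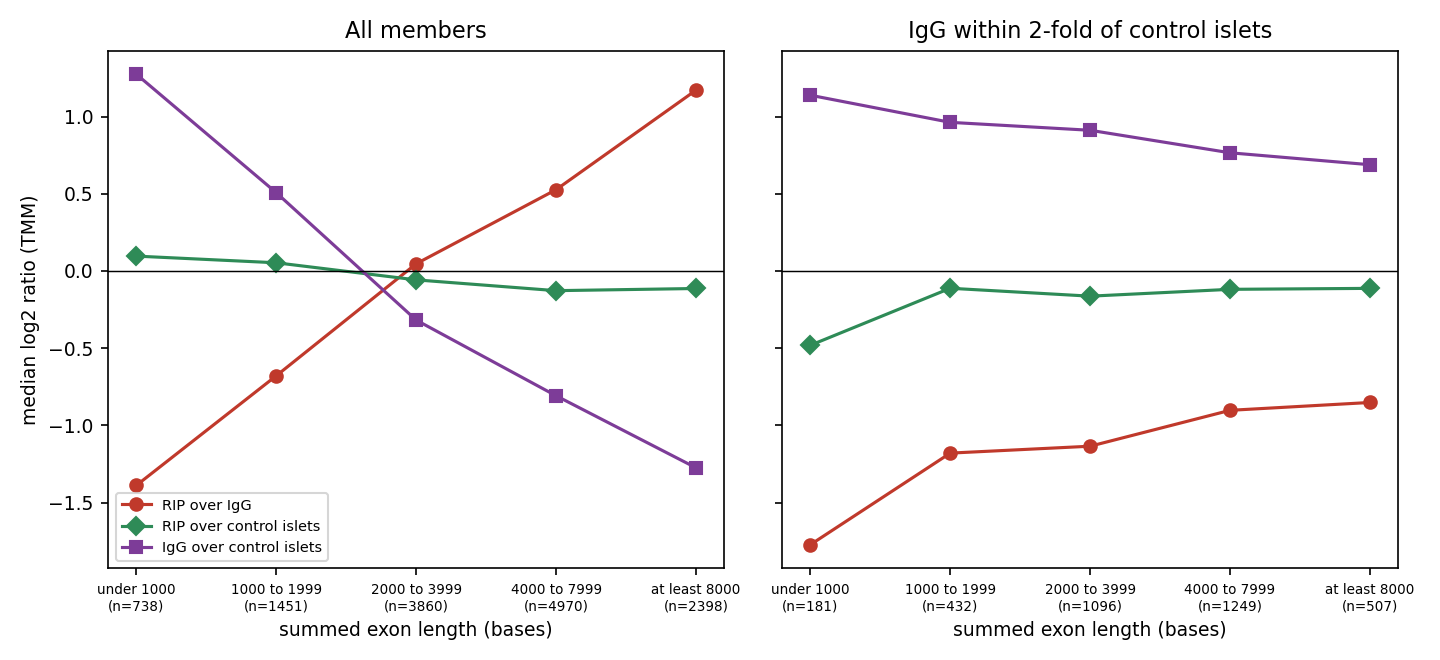
Median log2 ratio by class of summed exon length (x axis, bases, with the number of genes) for RIP over IgG (red circles), RIP over control islets (green diamonds) and IgG over control islets (purple squares), for all members at left and for members whose IgG level was within 2-fold of control islets at right. At left RIP over IgG climbs from -1.39 to 1.17 while RIP over control stays between -0.13 and 0.10, and at right RIP over IgG climbs from -1.77 to -0.85.

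GGAC, a core of the sequence in which m6A is placed, was searched on the sense strand of 1 transcript per coding gene. It was present in 99.7% of 12379 coding members and in 98.3% of all 21474 coding genes of the files, so its presence separates nothing. By its density per kilobase 4 groups of members had medians of 0.18, 0.47, 0.53 and 0.30 for RIP over IgG, and from -0.06 to -0.11 for RIP over control. The match is of letters only and marks no site.

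By a rule of size, the 12 members whose interval lay farthest above 1 were taken among those with a mean of at least 5 CPM. They were Phactr1, Tm4sf4, Rapgef4, Efcc1, G6pc2, Spc25, Wnt4, Sez6l, Neurod1, Snap25, Chgb and Iapp. Phactr1 (ENSMUSG00000054728, GRCm38 chromosome 13, 42680623 to 43138526, plus strand), a regulator of actin and of protein phosphatase 1, had 5040 counts in control islets, 4264 in the RIP and 2 with IgG. Its ratio was 2903 (803 to 23977), and on estimated molecules, with 18 reads each in the RIP and 21 with IgG, its lower limit was 70.6. It was also 4.55-fold higher in the RIP than in control islets. Tm4sf4, a membrane protein of the tetraspan family, had 4293, 1093 and 1 counts and a ratio of 1488 (267 to 58832).

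Efcc1, a gene of a coiled-coil protein with EF-hand motifs, differed from the others of the 12 in its level against control islets. It had 258, 701 and 0 counts, at least 318-fold higher than in the IgG library and 14.6-fold higher than in control islets. In RIP over control the other members of the 12 lay between 0.992 (Sez6l) and 4.55 (Phactr1). Spc25, a kinetochore protein, had 3179, 1003 and 2 counts, and lies next to G6pc2 on chromosome 2. The counting of overlapping genes and of strand is not stated in the sources used here, and reads of these neighbours may not be separable.

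The 12 members farthest below 1 were Apoa1, Alb, Unc45b, Srr, Sspn, Mycl, Cldn15, Hrct1, Cdkn1c, Akap7, Rnf144b and Lhpp. Each had 7 or fewer counts in the RIP, and 7 of them had 0. Apoa1, the main protein of high-density lipoprotein, had 469, 0 and 720 counts, at least 176-fold lower in the RIP. Alb, albumin, had 58, 7 and 2702 and was 284-fold lower (137 to 706). Unc45b, a chaperone of muscle myosin, had 280, 1 and 801 counts, 588-fold lower (105 to 23266). Cdkn1c, an imprinted inhibitor of the cell cycle, had 119, 0 and 463, 113-fold lower at the floor. On estimated molecules the lower limits of the fold were 7.54 for Apoa1, 24.3 for Alb, 8.18 for Unc45b and 4.70 for Cdkn1c. Except for Alb, at 0.648 in RIP over control, these RNAs were also scarce or at 0 in the RIP against control islets. That reference is 1 library, and Apoa1 stood at 17.8 CPM in it but at 0.618 in the library labelled Rip2;IMP2. Unc45b (10.6 and 8.98) and Cdkn1c (4.52 and 4.90) were closer in the same libraries.

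**Figure D4:**
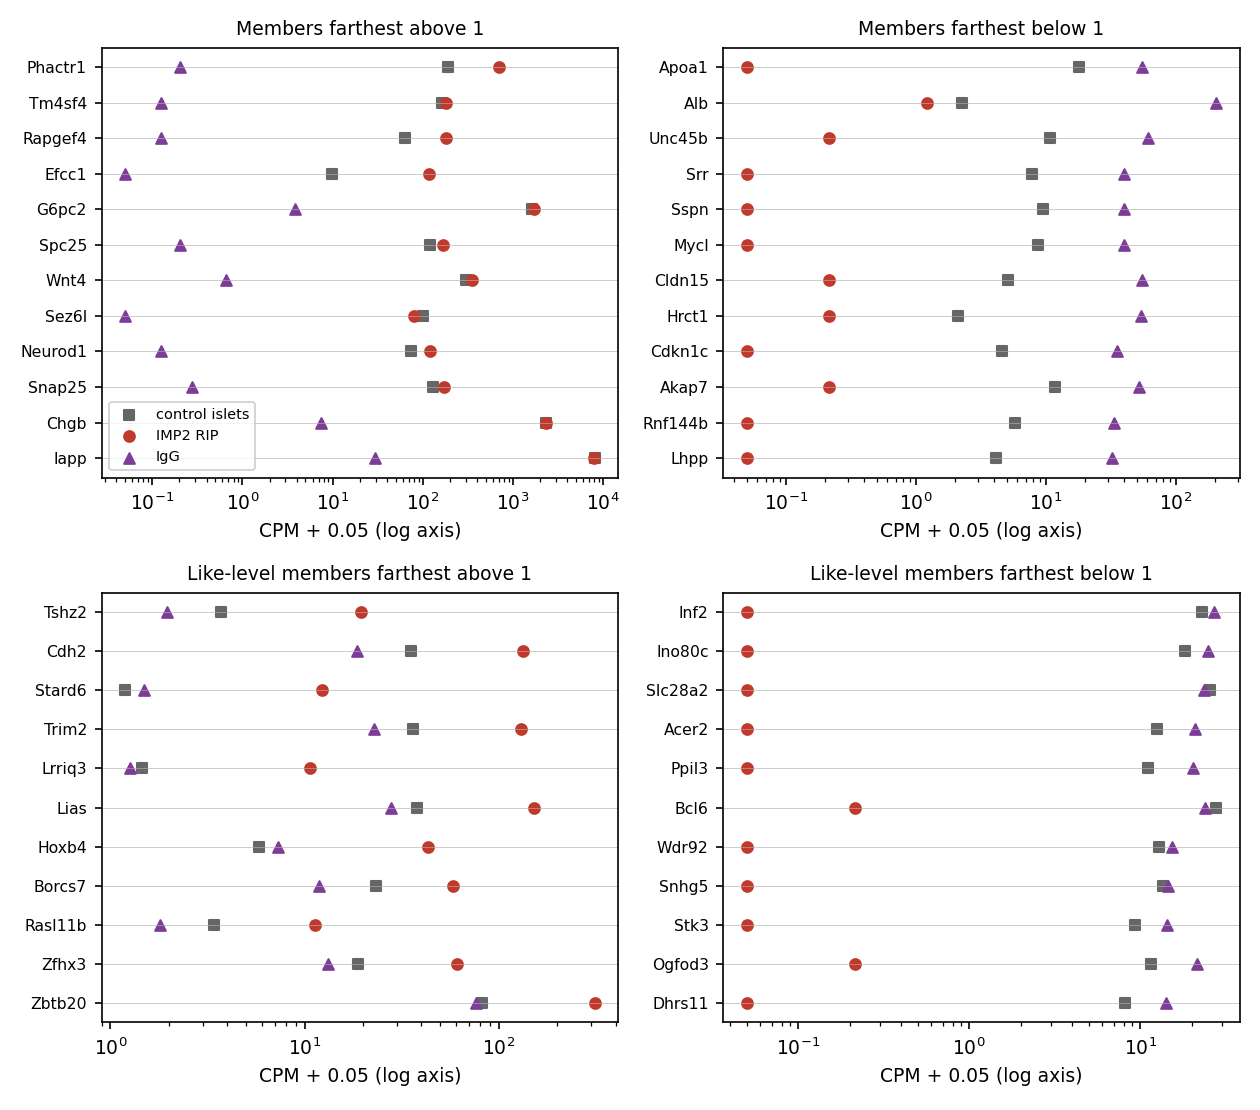
Levels of genes named by the rule of size in control islets (grey squares), the IMP2 RIP (red circles) and the IgG library (purple triangles), in CPM + 0.05 on log axes, 1 library each, so that 0 counts stand at 0.05. In the upper left panel control islets and RIP lie together above IgG for most genes, and in the lower left panel the RIP lies above both of the other libraries.

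To narrow the difference in level between the tissues, the 3479 members whose IgG CPM was within 2-fold of control islets were taken apart as like-level members. Of these 73 were higher in the RIP, 2.10%, and 1787 lower, 51.4%. Their median log2 ratio was -1.04 under TMM, -0.35 under library totals and 0.42 under totals without hormone, acinar and Gm42418 counts. The counts of higher and lower followed, with 263 and 978 for library totals, then 959 and 484 for totals without those genes. The share called in either direction under TMM was 53.5%. For these genes the window is set on CPM, and the medians under TMM were 0.85 for IgG over control and -0.14 for RIP over control. The window also rests on the IgG count, which is the denominator of RIP over IgG. It admits no member at 0 with IgG, while 195 like-level members are at 0 in the RIP. The shares higher and lower are therefore shaped in part by the choice of genes.

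The like-level members farthest above 1, by the same rule, included Tshz2, Cdh2, Stard6, Trim2, Lrriq3, Lias, Hoxb4, Borcs7, Rasl11b, Zfhx3 and Zbtb20. Cdh2, N-cadherin, an adhesion protein of beta cells and neurons, had 934, 802 and 245 counts and was 4.46-fold higher (3.86 to 5.16), and 4.61 in RIP over control. Trim2, a ubiquitin ligase of neurons, had 948, 785 and 299 and was 3.57-fold higher. Zbtb20, a transcriptional repressor, had 2163, 1876 and 1007 and was 2.54-fold higher (2.35 to 2.74), the smallest ratio of these genes.

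All of the genes named here were called higher under each of the scalings tried, and in RIP over control islets they lay between 3.08 (Borcs7) and 13.3 (Stard6). They were picked under TMM, and the other scalings moved their ratios little or raised them, so this is no separate check. On estimated molecules the lower limit was under 1 for Tshz2 (0.90), Stard6 (0.50), Lrriq3 (0.42) and Rasl11b (0.41). For the other genes named it lay between 1.24 (Zfhx3) and 2.30 (Cdh2). Tshz2 and Zfhx3, both zinc finger homeobox factors, had ratios of 6.43 and 2.90, and Hoxb4, a homeobox factor of the body axis, 3.74. Lias, lipoic acid synthetase, had 996, 912 and 369 counts and was 3.37-fold higher. On their exon length these genes ranged from 1907 bases (Stard6) to 30730 (Zbtb20).

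The like-level members farthest below 1 included Inf2, Ino80c, Slc28a2, Acer2, Ppil3, Bcl6, Wdr92, Snhg5, Stk3, Ogfod3 and Dhrs11. Inf2, an actin-nucleating formin, had 606 counts in control islets, 0 in the RIP and 356 with IgG. It was 87.2-fold lower at the floor of 3 counts (exact lower limit 70.5). Bcl6, a transcriptional repressor, had 734, 1 and 314, 231-fold lower (41.1 to 9138). On estimated molecules the lower limits of the fold were only 3.52 for Inf2 and 2.96 for Bcl6. These RNAs were at 23.0 (Inf2) and 27.9 (Bcl6) CPM in control islets and at or near 0 in the RIP. The library labelled Rip2;IMP2 held 16.2 CPM of Inf2 and 7.91 of Bcl6. Of 11771 members with at least 5 CPM in control islets, 153 had 0 counts in the RIP and 979 with IgG.

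Markers of cells other than islet endocrine cells also lay among the members. Acinar genes, from the enzyme-secreting part of the pancreas, were higher for 21 of 22 members (median 6.47), and ductal genes for 9 of 13 with 4 lower (median 4.52). Cpa1, a digestive carboxypeptidase, had 1164, 203 and 1 counts and a ratio of 276 (49.1 to 10970). The lower acinar gene was Amy1, an amylase also made outside the pancreas, with 137, 4 and 686 counts, 126-fold lower. Immune genes were higher for 11 of 17 and lower for 1 (median 1.74). Ms4a1, a B cell marker, had 5475, 246 and 0 counts, 112-fold higher than in the IgG library at the floor but at 0.241 in RIP over control.

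General adipocyte markers were lower for 17 of 17 members (median -4.31), brown adipocyte markers for 9 of 10 (median -4.46) and blood markers for 5 of 5 (median -5.19). Lpl, lipoprotein lipase, had 6070, 4649 and 163305 counts and was 25.8-fold lower than in the IgG library, and 4.11-fold above control islets in the RIP. Fabp4, a fatty acid carrier, had 960, 2168 and 58469 and was 19.8-fold lower, and 12.1-fold above control islets. The RIP thus stood between control islets and the IgG library for these RNAs. Endothelial genes were even, with 4 of 12 higher and 4 lower, 33.3% each way against 41.6% and 30.0% of all members.

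Genes measured in the precipitates but under 1 CPM in control islets lay farther from 1 than the members. Of the 1347, 60.1% were higher and 34.4% lower, and 302 had 0 counts in control islets. With IgG 715 were at 0 counts, and in the RIP 295. Such genes pass the limit on the mean through 1 library alone, so the shares called follow in part from that limit. Median counts of the 1347 genes were 5 in control islets, 19 in the RIP and 0 with IgG. Just inside the limit, Il4 and Gad2 stood at 1.02 CPM in control islets, and just outside it Nrg2, Gm15445 and Snrpf stood at 0.987.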

How the data were processed

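The authors deposited raw gene-level read counts, made with the aligner STAR and the counter HTSeq on mm10, per the submitters' processing notes. Versions, annotation release, strand option and any removal of duplicate reads are not stated in the sources used here. The 5 closing entries that name no gene held 72.4% of the deposited total in the RIP, 70.5% in the IgG library and 50.8% in control islets, and stayed out of library sizes. Gene names, lengths and positions came from GENCODE M21 (GRCm38), which matched 42548 of 43629 identifiers.

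CPM, TMM factors (edgeR 4.0.16, R 4.3.3) for each pair of libraries, and exact 95% Clopper-Pearson intervals (SciPy 1.17.1, Python 3.11.15) were computed from the counts, with DESeq2 1.42.0 size factors as an alternative. For log2 medians 0.5 counts were added. Folds against 0 use a floor of 3 counts, 0.498 CPM in the RIP and 0.227 CPM in the IgG library. They are not lower limits, since the exact 95% limits of such genes lie nearer to 1. Reads per molecule were estimated as the median count of genes over 5 counts in the precipitate and at 0 in both islet libraries, which is rough. This used 230 genes for the RIP and 121 for IgG. On estimated molecules the interval of a called gene can span 1, as for Ghrl with a lower limit of 0.168. The procedure was tested on simulated data with counting error only and few genes changed. That simulation held no copied reads and no tissue difference, so it does not check the calls or the scaling of these libraries. Named genes were the 12 in each direction with the interval limit nearest 1 lying farthest from it, at a mean of at least 5 CPM and without pseudogenes and unnamed models, among all members and among like-level members, besides the IMP genes, Pdx1 and examples from the lists (most extreme or most abundant). Members, lists and rules were chosen with earlier results of these data known. Results of some genes that these rules would name are not reported here.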

Additional observations from a re-analysis of the deposited data

How the results depend on the processing

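The median log2 ratio of members was 1.05 under library totals, 1.82 under totals without hormone, acinar and Gm42418 counts and 0.20 at a mean of at least 5 CPM. With those totals 1975 members were lower, and at a 4-fold limit 2546. On counts divided by the estimated reads per molecule 2304 members were higher, 13 like-level members higher and 983 lower. Like-level members higher and lower were 263 and 978 under library totals, 959 and 484 under totals without hormone, acinar and Gm42418 counts, 11 and 728 at 4-fold, and 41 and 1149 in a 1.5-fold window. With control islets at 5 CPM or more, 29 were higher. The difference between the longest and shortest members was 2.32 with no low-count filter, 3.01 at a mean of 5 CPM, 2.77 with control islets at 5 CPM or more, 2.14 with the longest class from 4000 bases, and 2.35 outside the gene lists, the last chosen after seeing the data. Totals without hormone, acinar and Gm42418 counts put Igf2bp2 at 1.51 and Igf2bp3 at 1.40, on the other side of 1. The causes of these shifts were not tested. Of 208 ratios of the 52 genes named by rule under other scalings, 203 kept their direction and call and 3 gained one. Most of these genes were picked for extreme ratios under TMM. Of 55 lists, 12 had a median that changed sign with the scaling. No paired analysis was possible because each group has 1 library, which also leaves no replicate to leave out. The RIP held fewer gene counts than the IgG library, and low counts limit ratios on its lower side.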
